A study of Mus musculus with 6 samples.

Results

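The genes described here are 102 developmental transcription factor genes of the Fox, Gata, Tbx, sine oculis (Six2 to Six6), Sox, Lhx and Pax families, out of 19936 genes measured. They were selected by symbol alone: the family name followed only by digits, or, for Fox, by 1 letter and digits. The array gave values for 43 Fox, 19 Sox, 12 Tbx, 9 Pax, 8 Lhx, 6 Gata and 5 sine oculis genes. RNA of 3 samples of HA-Fbxl10 cells and 3 samples of control cells was hybridised to Affymetrix arrays, 1 array per sample. HA-Fbxl10 cells are Tet-off mouse embryonic fibroblasts (MEFs) that received a plasmid with an HA-tagged Fbxl10 cDNA and a hygromycin resistance plasmid, and were picked as clones expressing the protein. Control cells are the untransfected Tet-off MEFs, and both groups therefore share the tetracycline-controlled transactivator. The number of clones behind the 3 HA-Fbxl10 samples is not stated, and without an empty-vector group the effects of Fbxl10, of transfection and of clone selection cannot be told apart. Whether the 3 samples of a group are separate cultures is not stated, so the p-values cover the spread among these RNA samples, which may be technical.

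Fbxl10, now named Kdm2b, is a histone demethylase whose CXXC zinc finger binds unmethylated CpG DNA and brings a variant Polycomb repressive complex to CpG islands. Polycomb complexes keep many developmental regulator genes silent in cells that do not use them. The families named above hold classic examples, but not every gene in them is one. In fibroblasts such genes of the mesenchymal lineage would tend to be transcribed, and those of other lineages would tend to be silent. The levels given below did not follow that split for every gene. The neural progenitor genes Sox1 and Sox3 were brighter in both groups than Foxf1 and Foxl1 of mesenchyme, although probe sets differ in brightness. Some genes, such as the ubiquitous Foxk2, belong to neither class. Kdm2b itself had log2 levels of 9.77, 9.75 and 9.58 in HA-Fbxl10 cells, against 7.38, 7.45 and 7.28 in control cells. Its difference was 2.33 ± 0.08 (SE, limma adjusted p = 3.31e-07), which fits the labels.

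Values are RMA levels on the log2 scale, and each difference is the HA-Fbxl10 mean minus the control mean with a moderated standard error. A gene is called here when its limma p, adjusted by the Benjamini-Hochberg method over all 19936 genes, is under 0.05. The table has no detection calls, so background was set from 1185 olfactory, vomeronasal and trace amine receptor genes, which fibroblasts are not known to use. Their levels had a median of 2.93 and a 95th percentile of 4.04, and the median over all genes was 5.36. Array medians over all probe sets were 4.69 to 4.79, and correlations over all probe sets were 0.994 to 0.996 within and 0.990 to 0.992 between groups. Of 14 fibroblast markers, 10 lay above the median of all genes in at least 1 group, led by vimentin and the type I collagen genes, but Lum and Fap lay near background. Of the 14, 3 were lower in HA-Fbxl10 cells: Col3a1 with a difference of -0.79 (limma adjusted p = 6.14e-05), S100a4 with -0.64 (0.000559) and Pdgfra with -0.30 (0.0285, and 0.0977 without HA-Fbxl10 replicate 2). Of markers of other cell types, 0 of 6 endothelial, 0 of 6 skeletal muscle, 2 of 6 epithelial (Krt8 and Cldn4), 1 of 5 haematopoietic (Cd68), and 1 of 6 pluripotent and germ cell markers (Nanog) lay above that median. Of the markers of these other cell types limma called 0, and 2 (Nanog and Dazl) had an unadjusted p under 0.05. Every called gene passes that threshold too, so it takes in at least 21.1% of all genes. Of 5 neural and glial markers 3 (Tubb3, Map2 and Stmn2) were lower in HA-Fbxl10 cells. The log2 of the summed unlogged signals of all 5 was 10.0 to 10.2 in HA-Fbxl10 cells and 10.7 to 10.8 in control cells. Most of that sum was Stmn2 alone, which averaged 9.91 in HA-Fbxl10 cells and 10.62 in control cells. Beside the 3 of 14 fibroblast and 3 of 5 neural and glial markers called lower stand 10.6% of all genes. Of all genes above the median level, 37.4% were called in either direction. In such bulk RNA, fewer cells of a type and less RNA per cell cannot be told apart. The part of these markers in the results was not tested.

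Most of the 102 genes did not differ between the groups by the test, and those that did went both ways. Of the 102, 11 were higher and 9 were lower in HA-Fbxl10 cells, and 82 were not called. That is 19.6% called, beside 21.1% of all genes, with 10.8% higher beside 10.5% of all genes and 8.82% lower beside 10.6% of all genes. The families differed in the direction of their calls. Fox genes accounted for 9 of the 11 higher genes and 1 lower gene, whereas the 3 Gata genes called and the pair Six2 and Six5 were all lower. Fox is also the largest family, with 43 of the 102 genes and 21 of the 42 above the median of all genes. Of the Fox genes 20.9% were higher and 2.33% lower, beside 10.5% and 10.6% of all genes. Of the 21 brighter Fox genes 42.9% were called in either direction, beside 37.4% of all genes at such levels. Lower were 50% of the 6 Gata and 40% of the 5 sine oculis genes, beside 10.6% of all genes. Tbx genes had 1 higher and 2 lower (25% called) and Sox genes 1 of each (10.5%), beside 21.1% of all genes. No difference between families was tested. Only Foxc2 changed by more than 2-fold.

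The arrays of the 2 groups did not overlap for 33 of the 102 genes (32.4%), beside 36.0% of all genes. The median difference of the 102 genes was -0.05 on the log2 scale, against -0.0043 for all genes. It was 0.0053 once array medians were subtracted, when the median of all genes was 0.05, so its own sign is not settled. With quantile normalisation it was -0.025, against 0.0056 for all genes. Under each scaling it lay below the median of all genes, a gap that was not tested.

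**Figure D1:**
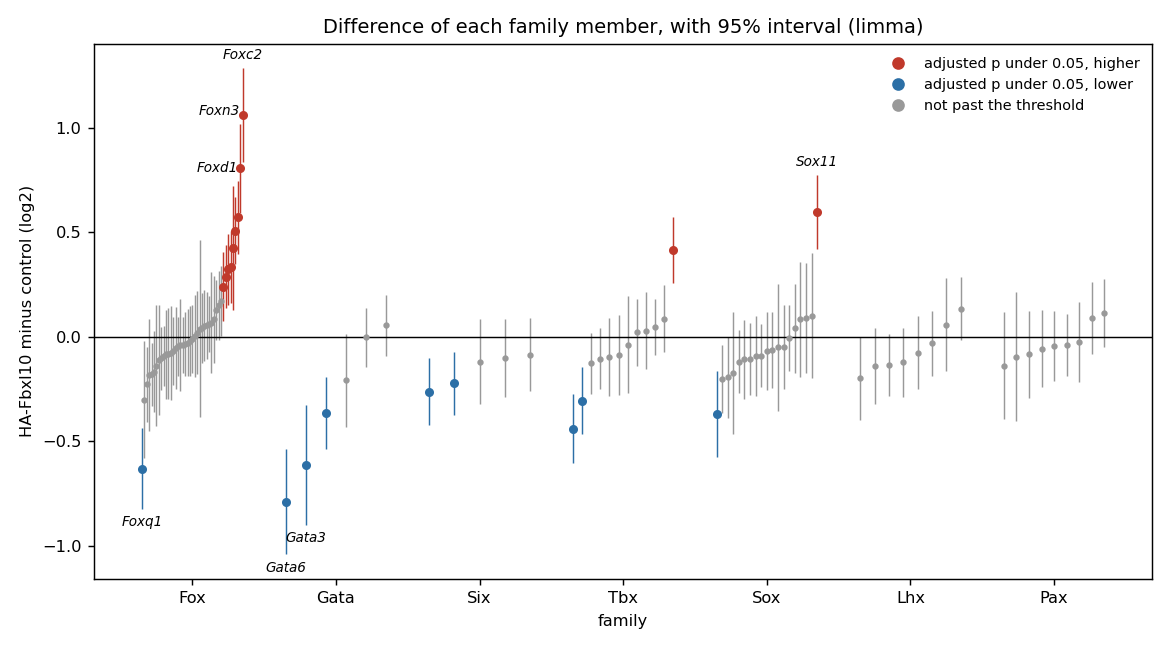
Difference of each of the 102 genes (HA-Fbxl10 minus control, log2, n = 3 arrays each) with its 95% interval from limma, sorted within family. Genes with an adjusted p under 0.05 are coloured: 9 Fox genes, Sox11 and Tbx3 lie above 0, and Foxq1, 3 Gata genes, Six2, Six5, 2 Tbx genes and Sox9 lie below it.

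Most calls lay among the brighter genes. In at least 1 group, 42 of the 102 genes had a mean above the median of all genes (5.36), 43 lay between the receptor background and that median, and 17 lay at or below the background of 4.04. Of the 42 brighter genes 18 were called (42.9%), beside 37.4% of all genes at such levels. Of the 43 intermediate genes 2 were called, Foxl1 and Six2 (4.65%, beside 8.13% of all genes in that range). Of the 17 genes near background 0 passed the limma test at the adjusted threshold, beside 1.77% of all genes near background at the same threshold. Their unadjusted p was under 0.05 for 0 of the 17, and the largest of their differences was 0.14 in size. Every called gene passes that unadjusted threshold too, so it takes in at least 1.77% of all genes near background. A gene counts as near background only when both group means are at or below it, so these 17 cannot show whether a gene came up from background. Probe sets differ in brightness for the same amount of RNA. The erythroid gene Gata1 (4.22 in HA-Fbxl10 cells and 4.23 in control cells) lay just above the receptor background, so an intermediate value does not show that a transcript was present.

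**Figure D2:**
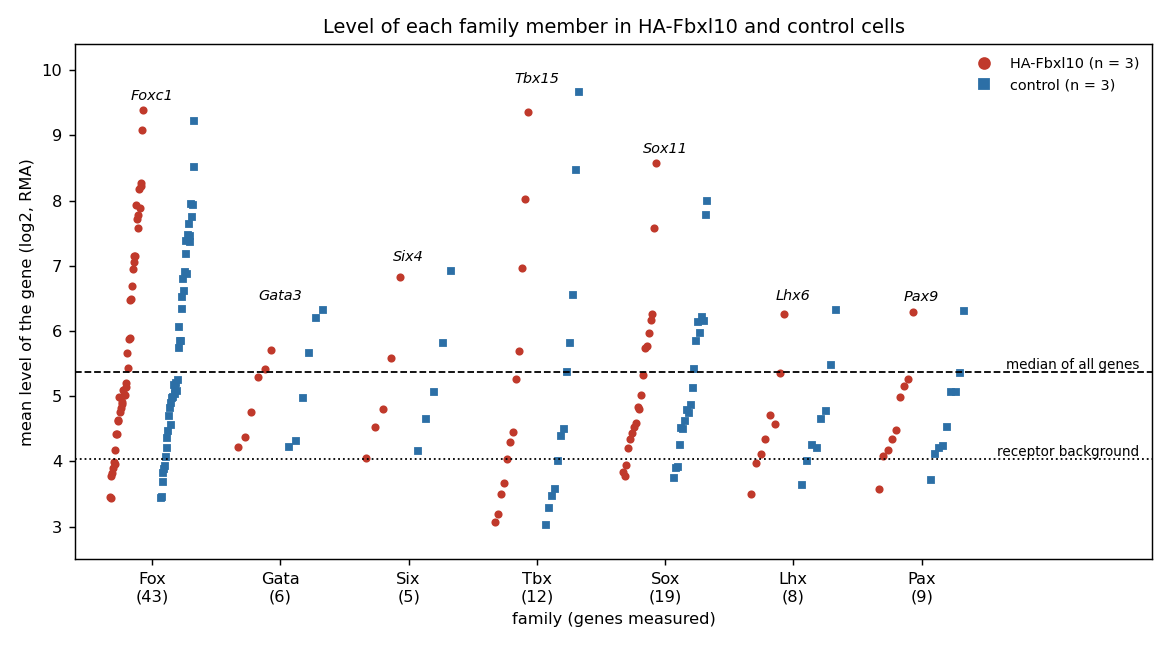
Mean level of each gene (log2, RMA) in HA-Fbxl10 cells (circles, n = 3) and control cells (squares, n = 3), by family, with the gene of highest level named. The dotted line is the receptor background (4.04) and the dashed line the median of all genes (5.36); every family has genes above the dashed line, and most Lhx and Pax genes lie under it.

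Upstream sequence is shown for 6 genes picked by outcome: Foxn3, Foxd1 and Sox11, which were higher in HA-Fbxl10 cells, Gata3 and Tbx18, which were lower, and Tbx22, which had the lowest level of all 102. The genes with the largest rise (Foxc2) and fall (Gata6) are not among them. Each line gives the 250 bases before the most 5′ annotated start of the gene from RefSeq (build GRCm38.p6), 5′ to 3′ on the gene's strand, with every CG in capitals because the CXXC finger binds that dinucleotide. Other starts of a gene were left out, and the start used in these cells is not known.
Foxn3 (chr12:99450075-99450324, minus strand): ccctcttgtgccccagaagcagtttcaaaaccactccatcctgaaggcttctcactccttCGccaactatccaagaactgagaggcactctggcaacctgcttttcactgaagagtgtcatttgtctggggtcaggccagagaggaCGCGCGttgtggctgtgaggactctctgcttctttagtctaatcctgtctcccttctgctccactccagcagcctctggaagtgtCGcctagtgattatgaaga
Foxd1 (chr13:98353995-98354244, plus strand): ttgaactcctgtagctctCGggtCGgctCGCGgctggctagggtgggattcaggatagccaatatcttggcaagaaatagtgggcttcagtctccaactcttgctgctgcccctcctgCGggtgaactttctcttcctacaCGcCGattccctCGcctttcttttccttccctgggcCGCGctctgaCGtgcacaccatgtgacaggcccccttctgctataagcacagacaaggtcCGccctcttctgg
Sox11 (chr12:27342719-27342968, minus strand): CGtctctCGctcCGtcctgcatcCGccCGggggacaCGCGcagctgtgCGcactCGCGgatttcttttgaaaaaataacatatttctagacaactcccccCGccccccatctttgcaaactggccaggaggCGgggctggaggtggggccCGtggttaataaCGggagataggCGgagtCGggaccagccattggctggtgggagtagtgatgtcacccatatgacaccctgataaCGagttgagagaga
Gata3 (chr2:9878601-9878850, minus strand): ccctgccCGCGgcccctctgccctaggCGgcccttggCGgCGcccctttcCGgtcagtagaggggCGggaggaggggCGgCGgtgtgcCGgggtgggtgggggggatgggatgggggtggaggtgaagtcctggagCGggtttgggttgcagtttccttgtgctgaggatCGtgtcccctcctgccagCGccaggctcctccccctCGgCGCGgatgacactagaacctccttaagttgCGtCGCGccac
Tbx18 (chr9:87731261-87731510, minus strand): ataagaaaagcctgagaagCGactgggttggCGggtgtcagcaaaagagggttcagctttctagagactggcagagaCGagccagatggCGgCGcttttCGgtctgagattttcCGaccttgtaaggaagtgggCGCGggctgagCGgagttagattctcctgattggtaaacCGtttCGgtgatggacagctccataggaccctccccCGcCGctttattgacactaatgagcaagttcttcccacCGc
Tbx22 (chrX:107667714-107667963, plus strand): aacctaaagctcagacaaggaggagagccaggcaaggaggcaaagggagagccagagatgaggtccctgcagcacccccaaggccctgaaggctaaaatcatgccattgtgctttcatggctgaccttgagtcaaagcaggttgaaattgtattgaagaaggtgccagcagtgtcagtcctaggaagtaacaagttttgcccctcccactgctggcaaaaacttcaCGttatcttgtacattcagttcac
CG occurs 5 times in the Foxn3 window, 12 times in that of Foxd1, 17 in that of Sox11, 19 in that of Gata3, 15 in that of Tbx18 and once in that of Tbx22. Of 15564 measured genes with such a window, 70.6% have at least as many as Foxn3, 49.0% as Foxd1, 34.0% as Sox11, 28.0% as Gata3, 39.9% as Tbx18 and 93.9% as Tbx22. Among the called genes shown, the window of Foxn3 was the poorest in CG and that of Gata3 the richest. The 6 genes were picked by outcome, so they cannot show whether CG content goes with the change. Windows were at hand for 72 of the 102 genes (70.6%), below the 80% needed for a check over the whole set, so such a check would be void and none was made. The windows say nothing of methylation or of Kdm2b binding, which were not measured.

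Fox proteins bind DNA through a winged-helix domain, and the Foxc, Foxd, Foxf and Foxl groups pattern mesenchyme. Foxc2, needed for mesenchymal condensation and lymphatic vessels, had levels of 7.92, 7.91 and 7.97 in HA-Fbxl10 cells, against 6.89, 6.65 and 7.07 in control cells. Its difference was 1.06 ± 0.10 (SE), a 2.09-fold rise (limma adjusted p = 0.00011), and its control arrays were the more scattered. Foxn3, a repressor tied to the DNA damage checkpoint, had levels of 8.09, 8.15 and 8.27 in HA-Fbxl10 cells, against 7.27, 7.26 and 7.57 in control cells. It rose by 0.81 ± 0.09 (adjusted p = 0.000375), and its second, dimmer probe set gave a difference of 0.63. Foxd1, a marker of kidney stroma and dermal fibroblast progenitors, had levels of 9.12, 8.99 and 9.14 in HA-Fbxl10 cells, against 8.41, 8.49 and 8.62 in control cells. The rise was 0.57 ± 0.08 (adjusted p = 0.000796). For all 3 genes every HA-Fbxl10 array lay above every control array, and the call held in each alternative run.

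Foxn2, a close relative of Foxn3, had levels of 8.29, 8.31 and 8.19 in HA-Fbxl10 cells, against 7.79, 7.66 and 7.82 in control cells. Its rise of 0.51 ± 0.07 (limma adjusted p = 0.000977) also held in each alternative. Foxj2, a transcriptional activator, had levels of 6.96, 6.91 and 6.99 in HA-Fbxl10 cells, against 6.75, 6.51 and 6.59 in control cells (difference 0.34 ± 0.08, adjusted p = 0.0119). Foxo1, a FoxO factor that insulin signalling keeps out of the nucleus, had levels of 7.70, 7.82 and 7.80 in HA-Fbxl10 cells, against 7.33, 7.55 and 7.47 in control cells. The difference of Foxo1 was 0.32 ± 0.08 (adjusted p = 0.0133), and the call ended without HA-Fbxl10 replicate 3 (0.0527) or control replicate 1 (0.0533). Foxm1, an activator of mitotic genes, had levels of 8.17, 8.29 and 8.20 in HA-Fbxl10 cells, against 7.93, 7.87 and 7.99 in control cells (difference 0.29 ± 0.07, adjusted p = 0.0127). In none of these genes did the groups overlap, but all changes were under 1.5-fold.

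Foxf2 and Foxl1, targets of Hedgehog signalling in gut mesenchyme, were the weakest of the higher Fox genes. Foxf2 had levels of 7.70, 7.75 and 7.69 in HA-Fbxl10 cells, against 7.54, 7.54 and 7.34 in control cells (difference 0.24 ± 0.07, limma adjusted p = 0.0457). Foxl1 had levels of 4.81, 5.03 and 5.11 in HA-Fbxl10 cells, against 4.62, 4.80 and 4.26 in control cells (difference 0.43 ± 0.13, adjusted p = 0.0482). The highest control array of Foxl1 lay just under its lowest HA-Fbxl10 array, and all 6 values lay under the median of all genes. The call of Foxf2 ended without any 1 array (adjusted p of 0.0553 to 0.123). That of Foxl1 ended without HA-Fbxl10 replicate 2 (0.123) or 3 (0.166), or without control replicate 1 (0.0917) or 3 (0.101).

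Foxq1, a factor of hair and epithelia, was the 1 Fox gene that fell. Its levels were 5.59, 5.37 and 5.35 in HA-Fbxl10 cells, against 5.99, 6.17 and 6.04 in control cells. The difference was -0.63 ± 0.09 (SE, limma adjusted p = 0.000798), a 1.55-fold fall to about the median level of all genes, and it held in each alternative run.

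Several of these genes are neighbours on a chromosome. On chromosome 13 Foxq1, Foxf2 and Foxc1 follow each other with no other protein-coding gene between them in the GRCm38.p6 annotation. Foxq1 fell while Foxf2 rose, and Foxc1, the close paralogue of Foxc2, had a difference of 0.17 that was not called (limma adjusted p = 0.144). On chromosome 8 Foxc2 and Foxl1 are adjacent and both rose. Foxf1, with 1 protein-coding gene between it and Foxc2, averaged 5.20 in HA-Fbxl10 cells and 5.25 in control cells (adjusted p = 0.707). Its second probe set, at 3.75 in HA-Fbxl10 cells and 3.88 in control cells, lay near background. Neighbouring Fox genes thus differed in their calls in both clusters, although the calls of Foxf2 and Foxl1 were not firm.

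**Figure D3:**
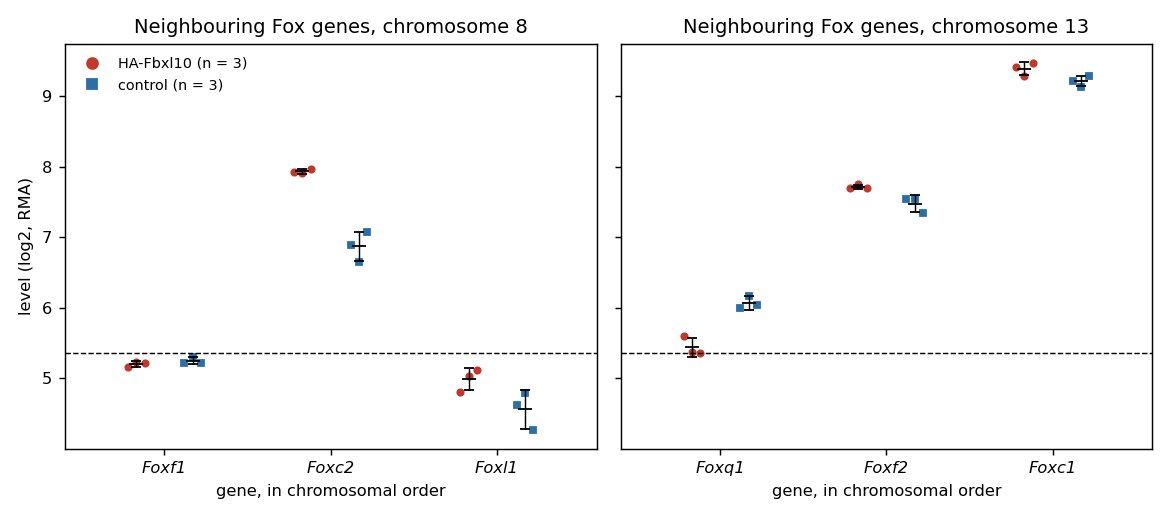
Levels (log2, RMA) of 2 groups of neighbouring Fox genes in each HA-Fbxl10 array (circles) and control array (squares), with mean ± SD (n = 3); the dashed line is the median of all genes (5.36). Foxc2 is 1.06 higher beside an uncalled Foxf1, and Foxq1 is lower beside a higher Foxf2.

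Other Fox genes at levels above the median were not called. Foxc1, of mesenchyme, skull and eye, had the highest level of the family, 9.38 in HA-Fbxl10 cells and 9.21 in control cells, and was called higher with either variance trend (0.0454 and 0.0442). Foxp1, a repressor of many tissues, averaged 7.89 in HA-Fbxl10 cells and 7.95 in control cells. The ubiquitous Foxk2 had means of 7.58 and Foxk1 of 6.49 in HA-Fbxl10 cells, against 7.63 and 6.53 in control cells. Of the remaining FoxO genes, Foxo3 averaged 7.15 in HA-Fbxl10 cells and 7.38 in control cells (limma adjusted p = 0.0775), with groups that did not overlap. Foxo3 was called lower with array weights (0.0467) and with either variance trend (0.0485 and 0.0497). Foxo4 averaged 7.16 in HA-Fbxl10 cells and 7.17 in control cells. Foxj3 averaged 7.05 in HA-Fbxl10 cells and 6.90 in control cells, and Foxp4 averaged 6.47 and 6.34 in the same order. The thyroid factor Foxe1 averaged 6.69 in HA-Fbxl10 cells and 6.80 in control cells. Ovarian Foxl2 averaged 5.89 in HA-Fbxl10 cells and 5.84 in control cells. The lens factor Foxe3 averaged 5.88 in HA-Fbxl10 cells and 5.84 in control cells, and Foxi2 averaged 5.66 and 5.73 in the same order.

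The 15 uncalled Fox genes of intermediate level include factors of other lineages, and their differences ran from -0.30 to 0.06. Foxs1 had the largest difference of any uncalled gene among the 102, with 4.87 in HA-Fbxl10 cells and 5.18 in control cells (limma adjusted p = 0.13). It was called without control replicate 2 (adjusted p = 0.0472). The regulatory T cell factor Foxp3 averaged 5.14 in HA-Fbxl10 cells and 5.08 in control cells. Endodermal Foxa2 averaged 5.09 in HA-Fbxl10 cells and 5.04 in control cells, and its relative Foxa1 averaged 3.96 and 4.07 in the same order. Without control replicate 3 Foxa1 had a difference of -0.26 and was called (adjusted p = 0.0458). Foxb2 averaged 5.02 in HA-Fbxl10 cells and 5.20 in control cells, and Foxb1 averaged 4.43 and 4.36 in the same order. The retinal factor Foxn4 averaged 5.02 in HA-Fbxl10 cells and 5.11 in control cells, and the thymic epithelial factor Foxn1 averaged 4.64 and 4.82. Foxo6 averaged 4.91 in HA-Fbxl10 cells and 4.99 in control cells. The neural crest factor Foxd3 averaged 4.81 in HA-Fbxl10 cells and 4.98 in control cells, and Foxd2 averaged 4.75 and 4.89. Foxi3, of ectodermal placodes, averaged 4.62 in HA-Fbxl10 cells and 4.70 in control cells. Foxj1, the master factor of motile cilia, averaged 4.43 in HA-Fbxl10 cells and 4.46 in control cells, and Foxr2 averaged 4.17 and 4.21. Foxd4, Foxi1, Foxp2, Foxh1, Foxa3 and Foxr1 lay near background in both groups.

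Gata proteins are zinc finger factors, with Gata1 to Gata3 best known in blood lineages and Gata4 to Gata6 in heart and endoderm. The 3 Gata genes with levels above the median were all lower in HA-Fbxl10 cells, and the 3 dimmer ones were not called. Of all genes 37.4% were called above the median level and 8.13% at intermediate level. Gata6, expressed in many mesenchymal and smooth muscle cells, had levels of 5.55, 5.33 and 5.35 in HA-Fbxl10 cells, against 6.11, 6.45 and 6.04 in control cells. Its difference was -0.79 ± 0.11 (SE), a 1.73-fold fall (limma adjusted p = 0.00105) and the largest fall among the 102 genes. Gata3, the master factor of type 2 helper T cells, had levels of 5.69, 5.87 and 5.57 in HA-Fbxl10 cells, against 6.14, 6.22 and 6.62 in control cells (difference -0.61 ± 0.13, adjusted p = 0.00773). Gata2, which maintains blood progenitors, had levels of 5.40, 5.22 and 5.29 in HA-Fbxl10 cells, against 5.56, 5.74 and 5.69 in control cells (difference -0.36 ± 0.08, adjusted p = 0.00786). For these 3 genes every HA-Fbxl10 array lay below every control array, and the HA-Fbxl10 levels lay close to the median of all genes. The cardiac factor Gata4 averaged 4.76 in HA-Fbxl10 cells and 4.97 in control cells, without overlap but not called (adjusted p = 0.188). Gata5 averaged 4.37 in HA-Fbxl10 cells and 4.32 in control cells. Of 5 haematopoietic markers measured, 0 were called higher or lower by limma, and 1 lay above the median of all genes.

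T-box proteins share a DNA-binding domain named after Brachyury and act in limb, skin and heart. Tbx15, which patterns dermis and skeleton, had the highest level of the 102 genes, with 9.26, 9.41 and 9.38 in HA-Fbxl10 cells, against 9.59, 9.74 and 9.64 in control cells. Its difference was -0.31 ± 0.07 (SE, limma adjusted p = 0.0133), and the call ended without HA-Fbxl10 replicate 1 (0.0572). The paralogue Tbx18, of pericytes and urogenital mesenchyme, had levels of 8.02, 8.04 and 8.03 in HA-Fbxl10 cells, against 8.40, 8.60 and 8.40 in control cells. It fell by 0.44 ± 0.07 (adjusted p = 0.00239), and this call held in each alternative. Tbx3, a repressor of limb and mammary development, moved the other way, with 6.94, 6.96 and 7.00 in HA-Fbxl10 cells, against 6.65, 6.45 and 6.55 in control cells (difference 0.42 ± 0.07, adjusted p = 0.00268). Its close paralogue Tbx2 averaged 5.69 in HA-Fbxl10 cells and 5.81 in control cells (adjusted p = 0.232), with groups that did not overlap. Tbx1, of the pharyngeal arches, averaged 5.26 in HA-Fbxl10 cells and 5.36 in control cells. Tbx6 averaged 4.46 in HA-Fbxl10 cells and 4.49 in control cells, and Tbx21, the factor of type 1 helper T cells, averaged 4.30 and 4.39. Tbx5, the forelimb and heart factor next to Tbx3 on chromosome 5, lay near background at 3.20 in HA-Fbxl10 cells and 3.29 in control cells. Tbx4, next to Tbx2 on chromosome 11, also lay near background, as did Tbx19, Tbx20 and Tbx22.

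Proteins of the sine oculis family, Six2 to Six6 here, are homeodomain factors that work with Eya phosphatase coactivators in muscle, kidney and sense organs. All 5 had lower means in HA-Fbxl10 cells, as did 10165 of all 19936 genes. These arrays gave that sign under each scaling, with 9657 of all genes lower under quantile normalisation and 7324 with array medians subtracted. Only 2 of the 5 were called (40%, beside 21.1% of all genes), both with small changes. Six2, which maintains nephron progenitors, had levels of 4.82, 4.71 and 4.90 in HA-Fbxl10 cells, against 5.14, 5.03 and 5.04 in control cells (difference -0.26 ± 0.07, limma adjusted p = 0.0289). Six5, located beside the myotonic dystrophy kinase gene, had levels of 5.66, 5.49 and 5.62 in HA-Fbxl10 cells, against 5.83, 5.82 and 5.79 in control cells (difference -0.22 ± 0.07, adjusted p = 0.0428). Neither call was firm: 0 of the 5 passed once array medians were subtracted, with Six2 then at an adjusted p of 0.0796 and Six5 at 0.14. Six2 also lost its call without HA-Fbxl10 replicate 1 (0.075) or 2 (0.0986) or control replicate 1 (0.107), and Six5 without any 1 array (0.0576 to 0.137). Six4, the brightest of the family, averaged 6.83 in HA-Fbxl10 cells and 6.92 in control cells. Six3, the forebrain and eye gene next to Six2, averaged 4.53 in HA-Fbxl10 cells and 4.65 in control cells, and Six6 averaged 4.06 and 4.16.

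Sox proteins carry the DNA-binding box of the testis-determining factor. Sox11, a SoxC factor of embryonic mesenchyme and neurons, had levels of 8.45, 8.68 and 8.62 in HA-Fbxl10 cells, against 7.99, 7.91 and 8.05 in control cells. Its rise was 0.60 ± 0.08 (SE), 1.51-fold (limma adjusted p = 0.000689), and it held in each alternative. Its SoxC relative Sox4 averaged 7.58 in HA-Fbxl10 cells and 7.78 in control cells, without overlap but not called (adjusted p = 0.0867). Without control replicate 3 Sox4 was called lower (0.0432). Sox12, the remaining SoxC gene, averaged 5.74 in HA-Fbxl10 cells and 5.84 in control cells. Sox9, the master factor of cartilage, had levels of 5.89, 5.61 and 5.79 in HA-Fbxl10 cells, against 6.07, 6.27 and 6.06 in control cells (difference -0.37 ± 0.09, adjusted p = 0.0176). The groups did not overlap, but the call rested on HA-Fbxl10 replicate 2 and control replicate 2 (adjusted p of 0.0588 and 0.0604 without them). The neural progenitor genes Sox1 and Sox3 had means of 6.26 and 6.17 in HA-Fbxl10 cells, against 6.15 and 6.22 in control cells. Sox13 averaged 5.97 in both groups, and Sox15 averaged 5.32 in HA-Fbxl10 cells and 5.41 in control cells.

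Of the dimmer Sox genes none was called, beside 8.13% of all genes of intermediate level and 1.77% of those near background. Sox8 and Sox10, the SoxE relatives of Sox9, had means of 5.01 and 4.83 in HA-Fbxl10 cells, against 5.12 and 4.75 in control cells. Sox5 and Sox6, which assist Sox9 in cartilage, had means of 4.53 and 4.43 in HA-Fbxl10 cells, against 4.62 and 4.50 in control cells. Sox14 averaged 4.80 in HA-Fbxl10 cells and 4.86 in control cells, and Sox21 averaged 4.59 and 4.78. The endothelial factors Sox18 and Sox7 had means of 4.34 and 4.21 in HA-Fbxl10 cells, against 4.51 and 4.25 in control cells. Sox2, Sox17 and Sox30 lay near background.

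Lhx genes encode LIM homeodomain factors and Pax genes paired-domain factors, and limma called 0 genes of either family. Only 2 of 8 Lhx and 1 of 9 Pax genes lay above the median level, where 37.4% of all genes were called. Of all genes of intermediate level 8.13% were called, and of those near background 1.77%, so the lack of calls says little of these families. At an unadjusted p under 0.05 there was 1 Lhx gene and 0 Pax genes. Every called gene passes that threshold too, so it takes in at least 8.13% of all genes of intermediate level. Lhx6, of forebrain interneurons and jaw mesenchyme, averaged 6.25 in HA-Fbxl10 cells and 6.33 in control cells. Lhx4, of the pituitary, averaged 5.36 in HA-Fbxl10 cells and 5.48 in control cells. Lhx2 averaged 4.58 in HA-Fbxl10 cells and 4.78 in control cells, Lhx3 averaged 4.71 and 4.65, Lhx9 averaged 4.34 and 4.20, and Lhx1 averaged 4.12 and 4.25 in the same order. Arrays did not overlap for Lhx1, Lhx2, Lhx4 and Lhx9, the last of which had the higher HA-Fbxl10 mean. That is 50% of the 8 Lhx genes, beside 36.0% of all genes. Lhx5 and Lhx8 lay near background. Pax9, of sclerotome and teeth, averaged 6.29 in HA-Fbxl10 cells and 6.31 in control cells and was the only Pax gene above the median level. The muscle stem cell factor Pax7 averaged 5.27 in HA-Fbxl10 cells and 5.36 in control cells. Pax2 and Pax8, of the kidney, had means of 5.15 and 4.98 in HA-Fbxl10 cells, against 5.06 and 5.07 in control cells. Pax1 averaged 4.48 in HA-Fbxl10 cells and 4.54 in control cells, Pax3 averaged 4.35 and 4.23, Pax5 averaged 4.17 and 4.21, and Pax4 averaged 4.08 and 4.12. Pax6, of eye and brain, lay near background. For every Pax gene the arrays of the groups overlapped, whereas for 36.0% of all genes they did not.

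**Figure D4:**
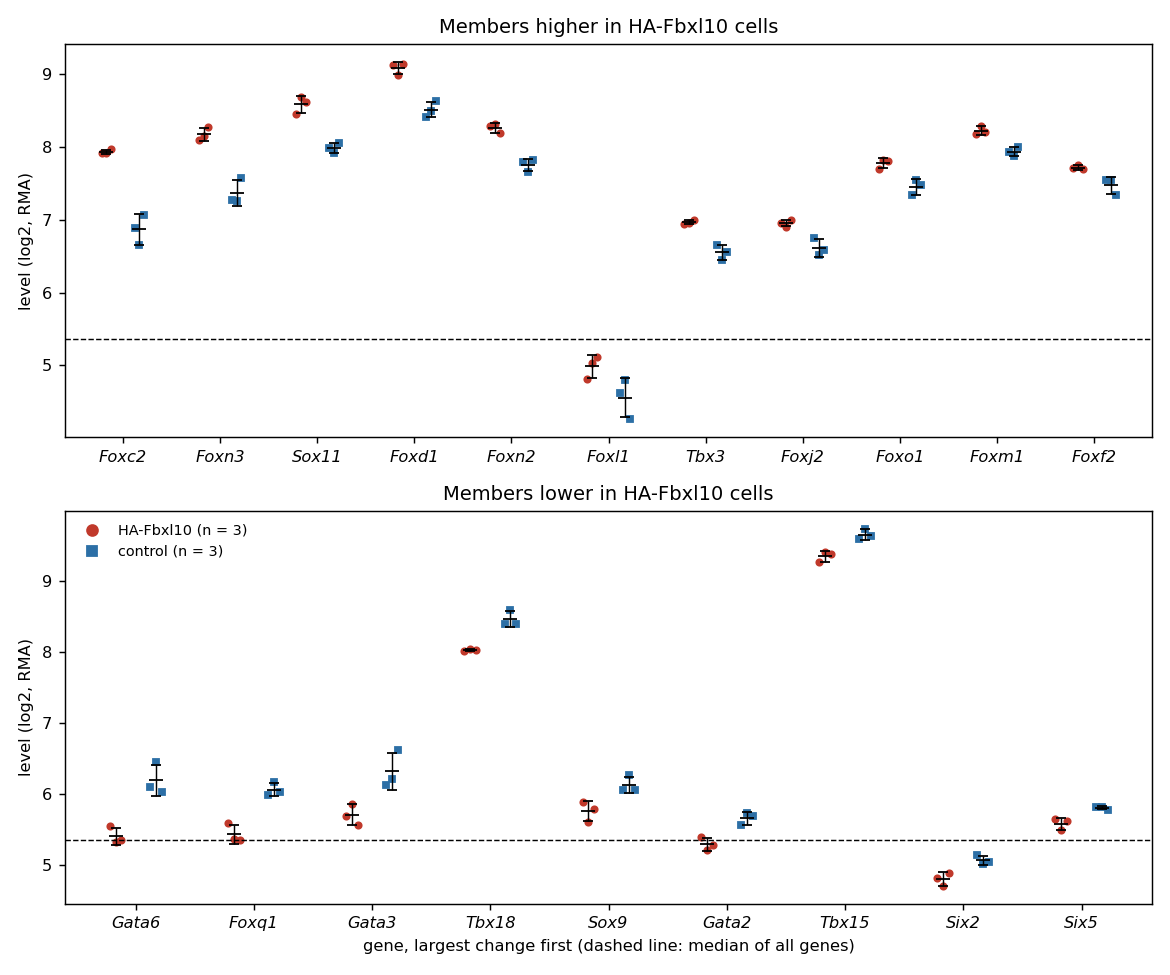
Level (log2, RMA) of the 20 called genes in each HA-Fbxl10 array (circles) and each control array (squares), with mean ± SD (n = 3). Genes are ordered by size of change, from Foxc2 to Foxf2 among the 11 higher and from Gata6 to Six5 among the 9 lower; the dashed line is the median of all genes (5.36), under which Foxl1 and Six2 lie in both groups.

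As an alternative, differences were also taken relative to the median of 31 neighbouring expressed genes. Expressed here means a mean over all arrays above the median of all genes. Only such genes were adjusted, and dimmer genes kept their differences. All genes called fell to 15.4% of those tested, and 8 of the 20 calls ended. The difference of Gata2 went to -0.05 (limma adjusted p = 0.784), that of Foxm1 to 0.09 (0.491), that of Sox9 to -0.19 (0.232) and that of Tbx15 to -0.15 (0.226). Tbx3 went to 0.24 (0.0515), Foxf2 to 0.14 (0.265) and Six5 to -0.19 (0.0872). Foxl1, too dim to be adjusted, kept its difference of 0.43 at an adjusted p of 0.0607. Six2, also too dim, kept its difference of -0.26 and stayed called (0.0377), so it was not compared with its neighbours. Foxd1 stayed called at 0.27 (0.0438), under its unadjusted size by more than 1.5 times. Other genes stood out more from their neighbourhood: Foxo1 had 0.65 (0.000499), Tbx18 -0.62 (0.000537), Gata6 -0.85 (0.000905) and Foxq1 -0.76 (0.000412). Sox4 became called, at -0.32 (0.0175). Foxc2 (1.04), Foxn3 (0.76), Sox11 (0.59) and Gata3 (-0.63) moved little.

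**Figure D5:**
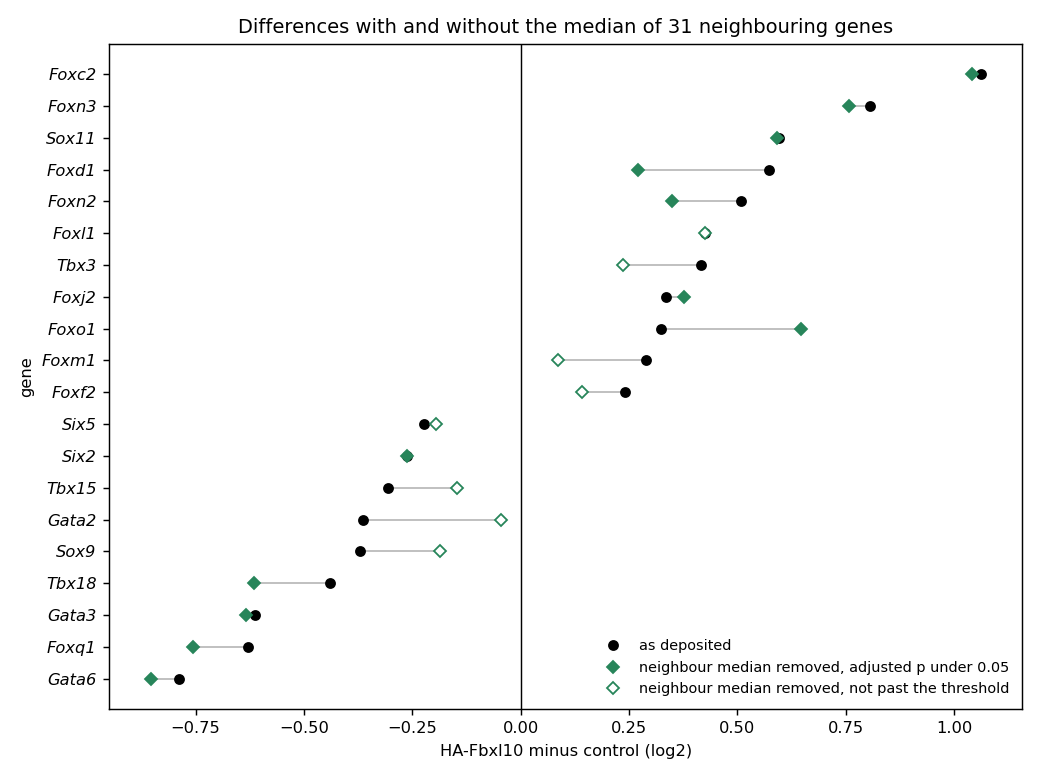
Difference of the 20 called genes (HA-Fbxl10 minus control, log2) as deposited (black circles) and after the median of 31 neighbouring expressed genes was removed (green diamonds, open where the adjusted p is 0.05 or more). Foxc2, Foxn3, Sox11 and Gata3 barely move, Gata2 moves to -0.05 and Foxo1 moves out to 0.65. Foxl1 and Six2 were too dim to be adjusted, so their circle and diamond coincide.

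Partners and targets of these factors were read from lists. Of 28 measured cofactor genes, 4 rose and 3 fell, with a median difference of -0.06. That is 25% called, beside 21.1% of all genes and 37.4% of genes above the median level, where 20 of the 28 lay. The single-stranded DNA-binding gene Ssbp2, whose product joins the LIM-domain complex, rose by 0.64 ± 0.06 (SE, limma adjusted p = 0.000106), and the Groucho corepressor gene Tle2 fell by 0.63 ± 0.07 (0.00031). Of 25 relatives outside the symbol rule, mostly other homeobox genes, 0 rose and 2 fell, and the median was -0.0034. Their 8% called stands beside 21.1% of all genes and 37.4% of genes above the median level, where 17 of the 25 lay. The 2 that fell were the limb mesenchyme genes Prrx1, at 9.38 in HA-Fbxl10 cells and 9.86 in control cells (-0.49 ± 0.07, limma adjusted p = 0.000972), and Prrx2, at 8.45 and 8.83 (-0.39 ± 0.07, 0.00265). The relatives' count was 4 with quantile normalisation, when 4508 of all 19936 genes were called, against 4208 in the main run.

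Among 14 cartilage genes that Sox9 activates, 2 rose, 0 fell and 12 were not called (14.3% called, beside 21.1% of all genes), with a median of -0.03. Col2a1 averaged 9.38 ± 0.04 in HA-Fbxl10 cells and 7.16 ± 0.39 in control cells (SD, n = 3 each), and Col11a1 rose by 0.72 ± 0.07 (SE, limma adjusted p = 0.000106). Of the other cartilage markers, Acan, Matn1, Hapln1 and Chad averaged 4.21 or less in both groups and Col9a1 averaged 5.66 in HA-Fbxl10 cells and 5.60 in control cells. The log2 of the summed unlogged signals of the 6 cartilage markers was 9.56 to 9.63 in HA-Fbxl10 cells and 7.78 to 8.23 in control cells. Most of that sum was Col2a1 alone, and the part of these markers in the Sox9 result was not tested. Of 20 FoxO targets, 4 rose, 9 fell and 7 were not called (65% called, beside 21.1% of all genes and 37.4% of those above the median level), with a median of -0.18. Txnip, an inhibitor of thioredoxin and glucose uptake, averaged 7.74 in HA-Fbxl10 cells and 9.27 in control cells (-1.53 ± 0.09, adjusted p = 9.24e-06). The stress-induced sestrin gene Sesn1 fell by 1.04 ± 0.07 (1.89e-05). Of 17 FoxM1 targets, 1 rose and 3 fell, with a median of 0.03. That is 23.5% called, beside 37.4% of all genes above the median level, where all 17 lay. The kinesin gene Kif20a rose by 0.38 ± 0.07 (0.00292) and the centromere motor gene Cenpe fell by 0.36 ± 0.07 (0.00661). That count of 4 was 2 without HA-Fbxl10 replicate 2, control replicate 1 or control replicate 3, and 8 with a variance trend.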

How the data were processed

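Total RNA (300 ng per array) was measured on Affymetrix arrays in 3 HA-Fbxl10 and 3 control samples. The deposited values are log2 levels, which the submitters' processing notes credit to RMA. No version is stated. Because RMA evens out the arrays, a change shared by nearly all genes would be hidden. No scan dates or batches are given. The platform annotation ties 21789 of 35556 probe sets to a single gene and 1621 to several, and leaves 12146 without a name here. Symbols were updated through Entrez identifiers (21698), accessions (3) or kept (88), with RefSeq GRCm38.p6 used for names and gene order. The probe set with the highest mean was used per gene, leaving 19936 genes. Some genes of these families are not reported here. Tests, two-sided, used limma version 3.58.1 under R 4.3.3, with Benjamini-Hochberg adjustment over all genes. It was tested on simulated data first. The number of arrays limits the precision.

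The members and lists were chosen with earlier results of these data known. The text names Kdm2b, every called member, every member above background, the member of highest level in each family, the largest uncalled change and, per list, the 2 largest called changes. Members near background, and single genes of the marker lists, were also named after their values were seen. The alternatives were quantile normalisation, subtraction of array medians, 2 filters on dim genes, averaged probe sets, variance trends, weighted arrays, a block for replicate number, an adjusted p of 0.01, removal of a running median of 31 neighbouring expressed genes, each array left out, and other background levels. The running median was taken over, and removed from, only genes with a mean above the median of all genes. Figures used matplotlib 3.10.9.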

Additional observations from a re-analysis of the deposited data

How the results depend on the processing

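No called member changed sign under any alternative. Of the 20 calls, 9 (Foxc2, Foxn3, Foxd1, Foxn2, Foxq1, Gata3, Gata6, Sox11 and Tbx18) held under all 17 alternatives and 11 ended under at least 1, while 5 uncalled members (Foxc1, Foxo3, Foxs1, Foxa1 and Sox4) were called under at least 1. The 17 are not separate checks. Averaging probe sets altered the values of Foxn3 alone among the called members, and the 2 filters on dim genes ended 0 calls. The 2 variance trends are close variants, and each ended 2 calls. Counts of higher members were 6 at an adjusted p of 0.01 and 7 with the running median of neighbours removed. That of lower members was 5 at 0.01. Of all 19936 genes, 2536 were called at 0.01 and 3065 with neighbours removed, against 4208 in the main run. Leaving out single arrays gave 8 to 10 higher and 6 to 10 lower, with 3208 to 3853 of all genes called. The members' median difference was 0.0053 with array medians subtracted. At 0.01, 4 cofactors, 8 FoxO targets and 2 FoxM1 targets were called. The relatives' count was 4 with quantile normalisation, when 4508 of all genes were called. That of FoxM1 targets was 7 with either filter on dim genes, 8 with either variance trend, 2 with neighbours removed and 2 to 4 without single arrays. With either variance trend 5032 of all genes were called. With the median of all genes as background 42 members counted as expressed, against 85 by the receptor background, 63 by its 99th percentile and 94 by the lower quartile of all genes.

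Replicate numbers are shared between groups. Deviations from group means correlated at 0.09, -0.28 and -0.09 for numbers 1, 2 and 3, and at -0.22 to 0.28 between unlike numbers. With 3 arrays per group these correlations gave no sign of a pairing by number but cannot exclude one. With the replicate block 9 members were higher and 7 lower, 5 calls ended and 1 (Foxs1) was gained, and 3397 of all genes were called, against 4208.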
